A study of Mus musculus with 30 samples.

Results

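Kidneys of mice with Kif3a deleted in tubule cells were compared with wild-type kidneys on Affymetrix Mouse Genome arrays, with both genotypes given PBS and no other agent named in the labels. The comparison was defined by the tissue and source labels and holds 7 of the 30 arrays of the series: 4 arrays labelled Kif3aΔTub + PBS and 3 labelled WT + PBS. The other 8 of the 15 kidney arrays, 4 Kif3aΔTub + sActRIIB-Fc and 4 WT + sActRIIB-Fc, came from animals injected into the peritoneum with a soluble activin receptor fusion protein at 10 mg/kg weekly, with 2 injections up to week 6, and the remaining arrays are from muscle. The mutant genotype is given as Kif3aKSPCre. Ksp is the promoter of the kidney-specific cadherin gene Cdh16, so the deletion is aimed at tubule epithelium. Podocytes, vessels, stroma and blood-derived cells are not its target. Which cells lost the gene, and in what share of each segment, was not measured here. The alleles that the wild-type controls carried and the sex of the animals are not given in the labels, and the only age there is week 6, in an injection protocol that is the same for all arrays. Below, mutants and wild type are these PBS groups unless the fusion protein is named.

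Kif3a is a motor subunit of kinesin-2, which carries cargo along the axoneme and is needed to build the primary cilium of tubule cells. Loss of tubule cilia in mouse kidney is a classic model of cystic disease, in which dilated tubules lose differentiated transport functions while the interstitium fills with fibroblasts, matrix and immune cells. In bulk tissue, fewer cells of a type and less RNA per cell cannot be told apart.

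Values are log2 intensities per array, differences are log2 fold changes of mutants over wild type ± standard error, and adjusted p values come from limma over 17782 genes. A gene was called at an adjusted p under 0.05. For a gene with several probe sets the brightest was used. Where no range is printed, its other probe sets can still differ in size. Umod, the uromodulin gene of the thick ascending limb, lay between 12.66 and 13.75 on the 15 kidney arrays, against 3.11 to 4.55 on muscle arrays. The muscle myosin gene Myh4 was between 2.95 and 3.65 in kidney. Olfactory receptor genes, which kidney tubules express little, had a median level of 3.79 and a 95th percentile of 4.97, used below as the background level. Where 1 group lay below that level, the printed difference depends on signal that is not above background. Xist lay between 4.54 and 4.76 in mutants and between 4.79 and 5.13 in wild type, near background, and the Y-linked gene Eif2s3y between 7.42 and 8.98 on all kidney arrays, the male pattern in both genotypes. Kap, a kidney androgen-regulated gene chosen here after its values were seen, lay between 11.97 and 12.69 in mutants and between 14.39 and 14.46 in wild type. The titles give each kidney array a number of its own, which a muscle array shares, and the labels do not say that these numbers are animals, so p values measure the spread between these samples, which may be technical. The replicate numbers used below are not these title numbers. They follow the order in which the arrays of each group are listed in the series.

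Genotype separated the arrays along the main axis of variation: the first principal component of the 7 arrays carried 86.9% of the variance and the second 4.34%. In mutants 4420 genes were higher (24.9% of those tested) and 4754 lower (26.7%), so 51.6% were called. With arrays centred on their median the called genes were 37.0% higher, against 48.2% in the values as deposited. Differences of at least 2-fold numbered 1574 higher (8.85%) and 1142 lower (6.42%), and 107 genes in each direction differed at least 8-fold. The median of all genes was -0.08. Every mutant array lay above every wild-type array for 27.7% of genes, and below for 32.0%. These shares are the background against which the counts for each group of genes are set.

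Kif3a was at 7.25, 7.39, 7.22 and 7.48 in mutants, against 7.76, 7.89 and 7.84 in wild type. The groups did not overlap, and the difference was -0.50 ± 0.15 (adjusted p = 0.011), with 3 probe sets between -0.50 and -0.41. The labels and files do not place these probe sets relative to the deletion. Cdh16, whose promoter drives the Cre, was at 12.65, 12.99, 12.93 and 12.86 in mutants, against 12.42, 12.38 and 12.48 in wild type (0.43 ± 0.11, adjusted p = 0.00296). Of 24 measured genes of the cilium motor and intraflagellar transport, 7 were higher (29.2%) and 5 lower (20.8%), with a median of -0.07. These shares are near the 24.9% and 26.7% of all genes. With arrays centred on their median 4 were higher, and without a single array the counts ran from 3 to 6 higher and 3 to 6 lower, the median being 0.01 without mutant replicate 1. Ift43, a subunit of the retrograde transport complex, rose by 0.76 ± 0.12. Ift27, a small GTPase of the anterograde complex, rose by 0.55 ± 0.13 on its brightest probe set, with probe sets from 0.14 to 0.55. Ift122, another retrograde subunit, fell (-0.57 ± 0.14). Genes mutated in cystic kidney disease had 8 of 18 members higher and 3 lower. Bicc1, an RNA-binding protein of the cystic network, was at 12.17, 11.90, 12.21 and 12.32 in mutants, against 10.52, 10.39 and 10.60 in wild type (1.65 ± 0.13). Pkd1, which encodes polycystin-1, was at 7.60, 7.40, 7.98 and 7.40 in mutants, against 6.30, 6.66 and 6.70 in wild type (1.05 ± 0.18), and Pkhd1, which encodes fibrocystin, rose by 1.00 ± 0.13. The mutants were above all wild-type arrays for each of these 3 genes. Invs, the gene of the ciliary protein inversin, was lower on its brightest probe set (-0.78 ± 0.17), while its 3 probe sets ran from -0.78 to 0.71.

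The 12 largest rises joined secreted injury and barrier proteins with signalling feedback and immune genes. Lcn2, a siderophore-binding protein secreted by injured tubules, was at 13.75, 12.87, 13.38 and 13.54 in mutants, against 5.56, 5.13 and 5.11 in wild type (8.12 ± 0.23, adjusted p = 5.22e-12). Every mutant array exceeded every wild-type array by more than 7 log2 units. Sprr2f, a small proline-rich protein of cornified epithelium, was at 10.29, 7.58, 8.51 and 7.81 in mutants, against 2.67, 2.90 and 2.88 in wild type (5.73 ± 0.59). It was high in mutant replicate 1 and lower in the other 3, and all wild-type arrays were below background. Muc4, a membrane-bound mucin, was at 8.0, 7.01, 7.67 and 7.98 in mutants, against 2.77, 2.53 and 2.47 in wild type (5.07 ± 0.27), and its 2 probe sets gave 1.16 and 5.07. Col12a1, a fibril-associated collagen, was at 11.96, 10.91, 12.11 and 12.27 in mutants, against 6.28, 6.03 and 6.22 in wild type, but its 3 probe sets ranged from 0.17 to 5.64. Socs3, a feedback inhibitor of cytokine receptors, was at 10.68, 10.00, 10.73 and 10.52 in mutants, against 5.55, 5.06 and 6.01 in wild type (4.94 ± 0.26). Timp1, an inhibitor of metalloproteinases, was at 10.71, 8.57, 10.40 and 10.02 in mutants, against 5.16, 5.32 and 5.42 in wild type, lowest in replicate 2.

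Ranks 7 to 12 among the rises lay between 4.35 and 4.54. Egr2, an immediate-early transcription factor, was at 7.52, 6.82, 8.38 and 8.04 in mutants, against 3.18, 3.07 and 3.20 in wild type. Il18r1, a receptor chain for interleukin-18, was at 8.59, 7.72, 7.91 and 7.99 in mutants, against 3.63, 3.62 and 3.60 in wild type (4.44 ± 0.17, adjusted p = 3e-10). The wild-type arrays of both genes were below background. Ankrd1, a mechanically induced nuclear cofactor and YAP target, was at 8.92, 8.47, 9.02 and 9.00 in mutants, against 4.62, 4.36 and 4.42 in wild type (4.39 ± 0.21). Clca3a2, of the calcium-activated chloride channel regulator family, was at 8.37, 7.30, 7.46 and 8.10 in mutants, against 3.60, 3.31 and 3.40 in wild type (4.37 ± 0.29). Lgi2, a secreted leucine-rich repeat protein, was at 8.75, 7.41, 8.34 and 8.49 in mutants, against 3.75, 3.65 and 4.24 in wild type, and Ms4a6d, a tetraspanning protein of myeloid cells, was at 7.94, 7.50, 8.75 and 7.99 in mutants, against 3.42, 3.67 and 4.00 in wild type. The 4 mutant arrays did not overlap the wild-type arrays for any of the 12, as the rule that chose them required, and replicate 2 was the lowest mutant for each of them.

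The 12 largest falls were mostly proximal tubule transporters and enzymes. Slc22a30, of the organic anion transporter family, was at 3.88, 4.89, 5.55 and 4.29 in mutants, against 11.69, 11.61 and 11.67 in wild type, at least 93.3-fold lower with mutant arrays below the background level set to it (-7.0 ± 0.36 as measured, adjusted p = 1.43e-09). Akr1c14, a steroid-metabolising aldo-keto reductase, was at 3.67, 5.91, 4.15 and 4.10 in mutants, against 11.36, 11.71 and 11.30 in wild type (-7.0 ± 0.70). In both, 3 of 4 mutant arrays were below background, while every wild-type array was above 11. Slc22a19, of the organic anion transporter family, was at 4.31, 6.24, 4.91 and 4.88 in mutants, against 11.19, 11.62 and 11.56 in wild type, and Slc22a22, a prostaglandin transporter, was at 3.73, 7.01, 4.44 and 4.39 in mutants, against 10.80, 10.70 and 10.68 in wild type. Mutant replicate 2 was the highest of the mutants for these 2 genes and for Akr1c14. Dnase1, a secreted deoxyribonuclease, was at 6.43, 7.06, 8.39 and 7.75 in mutants, against 13.35, 13.46 and 13.44 in wild type (-6.01 ± 0.44). Egf, the epidermal growth factor precursor made in the thick ascending limb and distal convoluted tubule, was at 5.87, 9.44, 7.56 and 6.81 in mutants, against 12.95, 13.14 and 13.17 in wild type (-5.67 ± 0.59). The mutants spanned more than 3 log2 units for Egf, and none reached the wild type.

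Slco1a1, an organic anion carrier, was at 5.09, 5.36, 5.52 and 5.49 in mutants, against 11.09, 11.01 and 10.72 in wild type (-5.58 ± 0.82). Acsm3, a mitochondrial medium-chain acyl-CoA synthetase, was at 6.51, 7.50, 8.23 and 7.10 in mutants, against 12.56, 12.66 and 12.58 in wild type, and Slc22a7, an organic anion transporter, was at 4.82, 5.56, 5.24 and 4.95 in mutants, against 10.48, 10.42 and 10.02 in wild type (-5.16 ± 0.24). Mutant and wild-type arrays were at least 4 log2 units apart in each. Mep1b, the beta subunit of the brush-border protease meprin, was at 5.25, 7.31, 7.50 and 7.21 in mutants, against 11.62, 11.81 and 11.67 in wild type, with replicate 1 far below the other mutants. Pzp, a protease-binding alpha-2-macroglobulin relative, was at 3.98, 3.89, 4.08 and 4.01 in mutants, against 8.85, 8.79 and 8.72 in wild type, and Hsd3b2, a hydroxysteroid dehydrogenase, was at 4.54, 4.66, 6.86 and 5.90 in mutants, against 10.41, 10.26 and 10.16 in wild type. The standard error was 0.66 for Pzp and 0.82 for Slco1a1. The fit shares 1 estimate of the spread per gene with the fusion-protein groups.

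**Figure D1:**
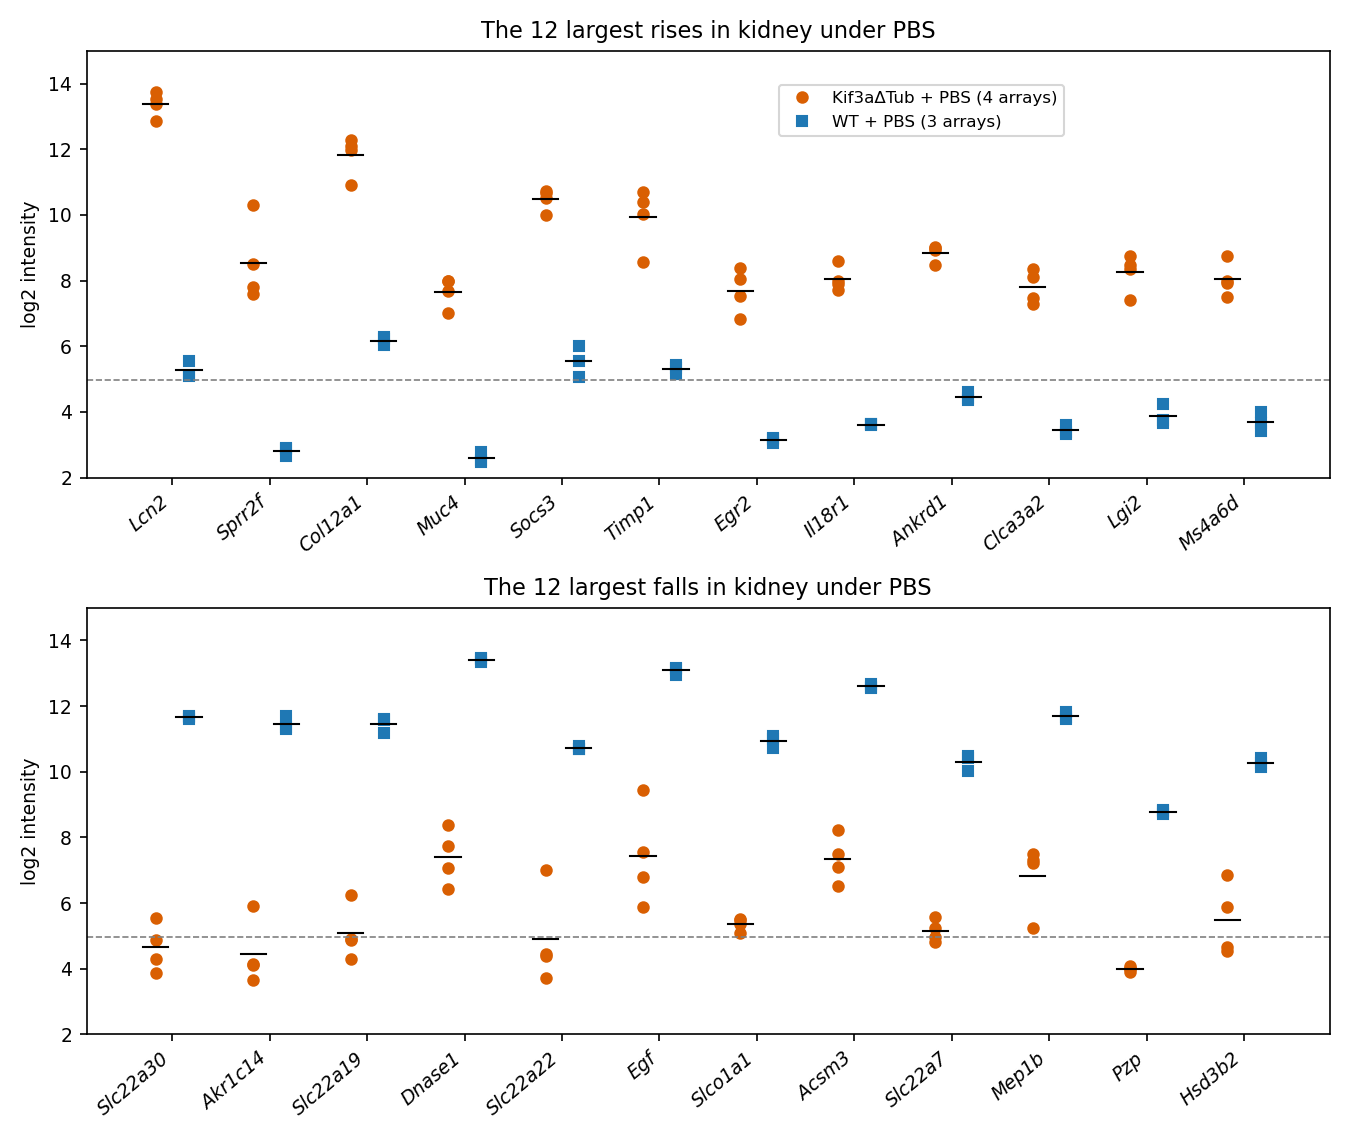
Log2 intensity (vertical axis) of the 12 largest rises and the 12 largest falls on each PBS kidney array, with circles for the 4 Kif3aΔTub + PBS arrays, squares for the 3 WT + PBS arrays and black bars for group means. The dashed line marks the background level of 4.97; for 8 of the 12 rises all wild-type arrays lie below it, and the circles spread more widely than the squares for most genes.

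Promoter windows among these 24 genes were read from RefSeq (GRCm38.p6), from 250 bases before to 50 after the gene start, and 19 were searched. Both strands were read for letters of 5 binding motifs: GGANTTTCC for NF-kB, TTCCNGGAA for STAT and TGANTCA for AP-1 in the rises, GTTAATNAT for HNF1 and CAAAGTCCA for HNF4 in the falls. Such letters were found in the window of 1 of 9 rises and 1 of 10 falls, and both are shown because no other window searched among the largest changes held them. Capitals mark the match, and each sequence runs 5′ to 3′ on the gene's strand. The Sprr2f window (chr3:92364937-92365236, plus strand) has AP-1 letters at -197 to -191 from the start. Pzp (chr6:128526671-128526970, minus strand) has HNF1 letters on the opposite strand at -202 to -194.
Sprr2f: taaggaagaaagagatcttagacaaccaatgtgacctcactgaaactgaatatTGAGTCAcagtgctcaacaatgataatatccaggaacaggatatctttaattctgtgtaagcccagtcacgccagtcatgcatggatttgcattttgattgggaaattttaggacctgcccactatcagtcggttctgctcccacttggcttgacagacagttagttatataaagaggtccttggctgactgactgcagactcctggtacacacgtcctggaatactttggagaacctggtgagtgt
Pzp: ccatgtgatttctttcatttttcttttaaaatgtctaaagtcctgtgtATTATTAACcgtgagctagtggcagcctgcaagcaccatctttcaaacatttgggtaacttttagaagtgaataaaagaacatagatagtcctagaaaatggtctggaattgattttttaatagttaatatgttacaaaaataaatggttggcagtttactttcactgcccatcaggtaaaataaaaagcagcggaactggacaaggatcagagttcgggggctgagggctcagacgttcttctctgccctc

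Over all 27025 windows in the table, 1.23% held the NF-kB letters, 1.15% the STAT letters, 7.93% the AP-1 letters, 0.836% the HNF1 letters and 0.477% the HNF4 letters. Among the 1211 windows of genes called at least 2-fold higher, 2.39% held the NF-kB letters, and among the 944 of genes at least 2-fold lower 0.847% did, against 1.29% of the windows of all genes in the fit. The STAT letters were in 1.65% of the higher and 1.06% of the lower set, against 1.20% in the fit. The HNF1 letters were in 0.743% of the higher and 2.01% of the lower set, against 0.614%, and the HNF4 letters in 0.578% and 1.17%, against 0.459%. For AP-1 the shares were 7.51% in the higher and 5.51% in the lower set, against 6.36%. These are descriptions of letters in a short window and show no binding.

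Proximal tubule transport genes were lower almost throughout. Of 31 measured solute carriers of the brush border and basolateral membrane, 28 were lower and 0 higher (median -1.95). The organic ion and drug transporters had 19 of 22 lower and 1 higher (-2.92), and receptor-mediated endocytosis 14 of 16 lower and 2 higher (-1.03). Slc34a1, the phosphate cotransporter NaPi-IIa, was at 8.99, 10.66, 10.53 and 10.06 in mutants, against 13.13, 13.13 and 13.09 in wild type (-3.06 ± 0.29, adjusted p = 5.43e-07). Slc34a3, its relative NaPi-IIc, fell by 3.13 ± 0.40. Replicate 1 had the lowest level of both among the mutants. Slc17a3, an organic anion and phosphate transporter, was at 7.40, 10.19, 9.01 and 8.50 in mutants, against 12.85, 12.93 and 12.89 in wild type (-4.12 ± 0.42), Slc16a4, a monocarboxylate transporter family member, fell by 4.08 ± 0.44, and Slc6a20b, of the imino acid transporter family, fell by 3.14 ± 0.32.

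The endocytic receptors fell together with their partners. Lrp2, which encodes megalin, was at 8.74, 10.53, 10.16 and 9.87 in mutants, against 12.45, 12.59 and 12.53 in wild type (-2.70 ± 0.30). Cubn, which encodes its co-receptor cubilin, was at 8.17, 10.04, 9.34 and 9.33 in mutants, against 11.25, 11.35 and 11.34 in wild type (-2.09 ± 0.31), and Amn, which anchors cubilin, fell by 2.11 ± 0.18. Pdzk1, a scaffold of the brush border, fell by 2.28 ± 0.29. No mutant array reached the wild-type range for these 4 genes. The members that went the other way were Ap1m2, an epithelial clathrin adaptor subunit (1.02 ± 0.14), Ocrl, the inositol phosphatase mutated in Lowe syndrome (0.76 ± 0.11), and among drug transporters Abcc4, an efflux pump of organic anions and cyclic nucleotides (1.81 ± 0.22). Of 22 nephron transcription factors, 13 were lower and 5 higher. Hnf4a, a driver of proximal tubule identity, was at 9.17, 9.93, 9.98 and 9.78 in mutants, against 11.42, 11.55 and 11.50 in wild type (-1.78 ± 0.16), and Nr1h4, the bile acid receptor FXR, fell by 2.41 ± 0.26.

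Metabolic enzymes concentrated in proximal tubule were lower across pathways. Amino acid catabolism and creatine synthesis had 30 of 35 lower and 2 higher (median -2.05), and gluconeogenesis and fructose metabolism 9 of 10 lower and 1 higher (-2.25). Dpys, a dihydropyrimidinase of pyrimidine breakdown, was at 3.88, 5.01, 4.08 and 3.89 in mutants, against 8.45, 8.24 and 8.25 in wild type (-4.10 ± 0.25), with 3 of 4 mutant arrays below background. Acy3, an aminoacylase, fell by 3.83 ± 0.34, Agxt2, an aminotransferase, fell by 3.80 ± 0.39, and Dmgdh, which breaks down dimethylglycine, fell by 3.61 ± 0.35. The 2 members that rose were Arg2, the mitochondrial arginase (1.97 ± 0.28), and Oat, ornithine aminotransferase (0.51 ± 0.12). Pcx, pyruvate carboxylase, was at 8.10, 9.88, 8.81 and 8.63 in mutants, against 11.40, 11.49 and 11.56 in wild type (-2.63 ± 0.36), and G6pc, which releases free glucose, was at 8.04, 10.24, 9.43 and 9.89 in mutants, against 12.03, 11.94 and 11.46 in wild type (-2.41 ± 0.56). Khk, ketohexokinase, fell by 2.33 ± 0.22 and Glyctk, glycerate kinase, fell by 2.92 ± 0.13. Mutant replicate 1 was the lowest of the mutants for Pcx and G6pc and replicate 2 the highest. Pck2, the mitochondrial phosphoenolpyruvate carboxykinase, was the member that rose (0.72 ± 0.11 on its brightest probe set, the other being at 0.07).

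Mitochondrial energy genes moved by smaller steps and with few exceptions. Oxidative phosphorylation had 35 of 35 members lower (median -0.82, from -1.96 to -0.45), and the tricarboxylic acid cycle 18 of 19 (-0.94), with 0 higher in either. Dld, a shared subunit of the 2-oxoacid dehydrogenases, was at 9.55, 9.87, 9.49 and 9.66 in mutants, against 11.30, 11.16 and 11.10 in wild type (-1.54 ± 0.14). Suclg1, a subunit of succinyl-CoA ligase, fell by 1.25 ± 0.15 and Mpc1, of the mitochondrial pyruvate carrier, fell by 1.31 ± 0.18. In complex II, Sdhb was at 11.14, 11.60, 11.37 and 11.39 in mutants, against 12.68, 12.54 and 12.60 in wild type (-1.23 ± 0.11), and Cycs, cytochrome c, fell by 1.25 ± 0.13. Mutant replicate 2 was the closest to wild type for Dld, Suclg1, Mpc1, Sdhb and Cycs. Fatty acid oxidation and peroxisomal genes were lower in 27 of 31 (-1.26) and higher in 0, led by Pecr, a peroxisomal enoyl-CoA reductase (-3.80 ± 0.30), and Cd36, a fatty acid transporter (-3.41 ± 0.58). Acot12, an acetyl-CoA thioesterase, was at 7.26, 8.77, 7.45 and 7.48 in mutants, against 10.54, 10.50 and 10.72 in wild type, and Acox3, a peroxisomal oxidase of branched chains, fell by 2.58 ± 0.29. The dimmer Acox3 probe set gave -0.44.

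Glycolysis moved in both directions, as 7 of 18 members were higher and 7 lower (median 0.11, and -0.05 once arrays were centred on the median gene). Hk2, an inducible hexokinase, was at 7.46, 7.11, 7.45 and 7.17 in mutants, against 5.81, 4.93 and 5.17 in wild type (2.00 ± 0.26). Slc2a1, the glucose transporter GLUT1, was at 10.81, 10.42, 10.59 and 10.60 in mutants, against 9.08, 9.14 and 9.11 in wild type (1.49 ± 0.16), and Pfkfb3, which makes the activator of phosphofructokinase, rose by 1.27 ± 0.19 on the brighter of 2 probe sets, the other being at 0.00. The mutants were above all wild-type arrays for the 3 genes. Cytochrome P450 enzymes were lower in 12 of 20 and higher in 4 (-1.27). Cyp2d12 was at 3.09, 3.38, 3.19 and 3.30 in mutants, against 7.38, 7.25 and 7.38 in wild type (-4.09 ± 0.19), all mutants being below background. Cyp2e1, an ethanol-inducible enzyme, was at 9.28, 11.56, 9.40 and 9.37 in mutants, against 12.97, 12.83 and 12.81 in wild type (-2.97 ± 0.53), with replicate 2 apart from the other 3. Cyp4v3 rose by 1.75 ± 0.09, and Cyp1b1, expressed in stroma in many tissues, was higher on its brightest probe set (2.52 ± 0.27, 3 probe sets from -0.26 to 2.52). Conjugation enzymes were lower in 11 of 27 and higher in 5, with Ugt3a1, a glycosyltransferase, at 6.32, 7.28, 7.37 and 6.86 in mutants, against 11.44, 11.55 and 11.09 in wild type (-4.41 ± 0.23) and Gstm2, a glutathione transferase, higher by 1.90 ± 0.15.

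**Figure D2:**
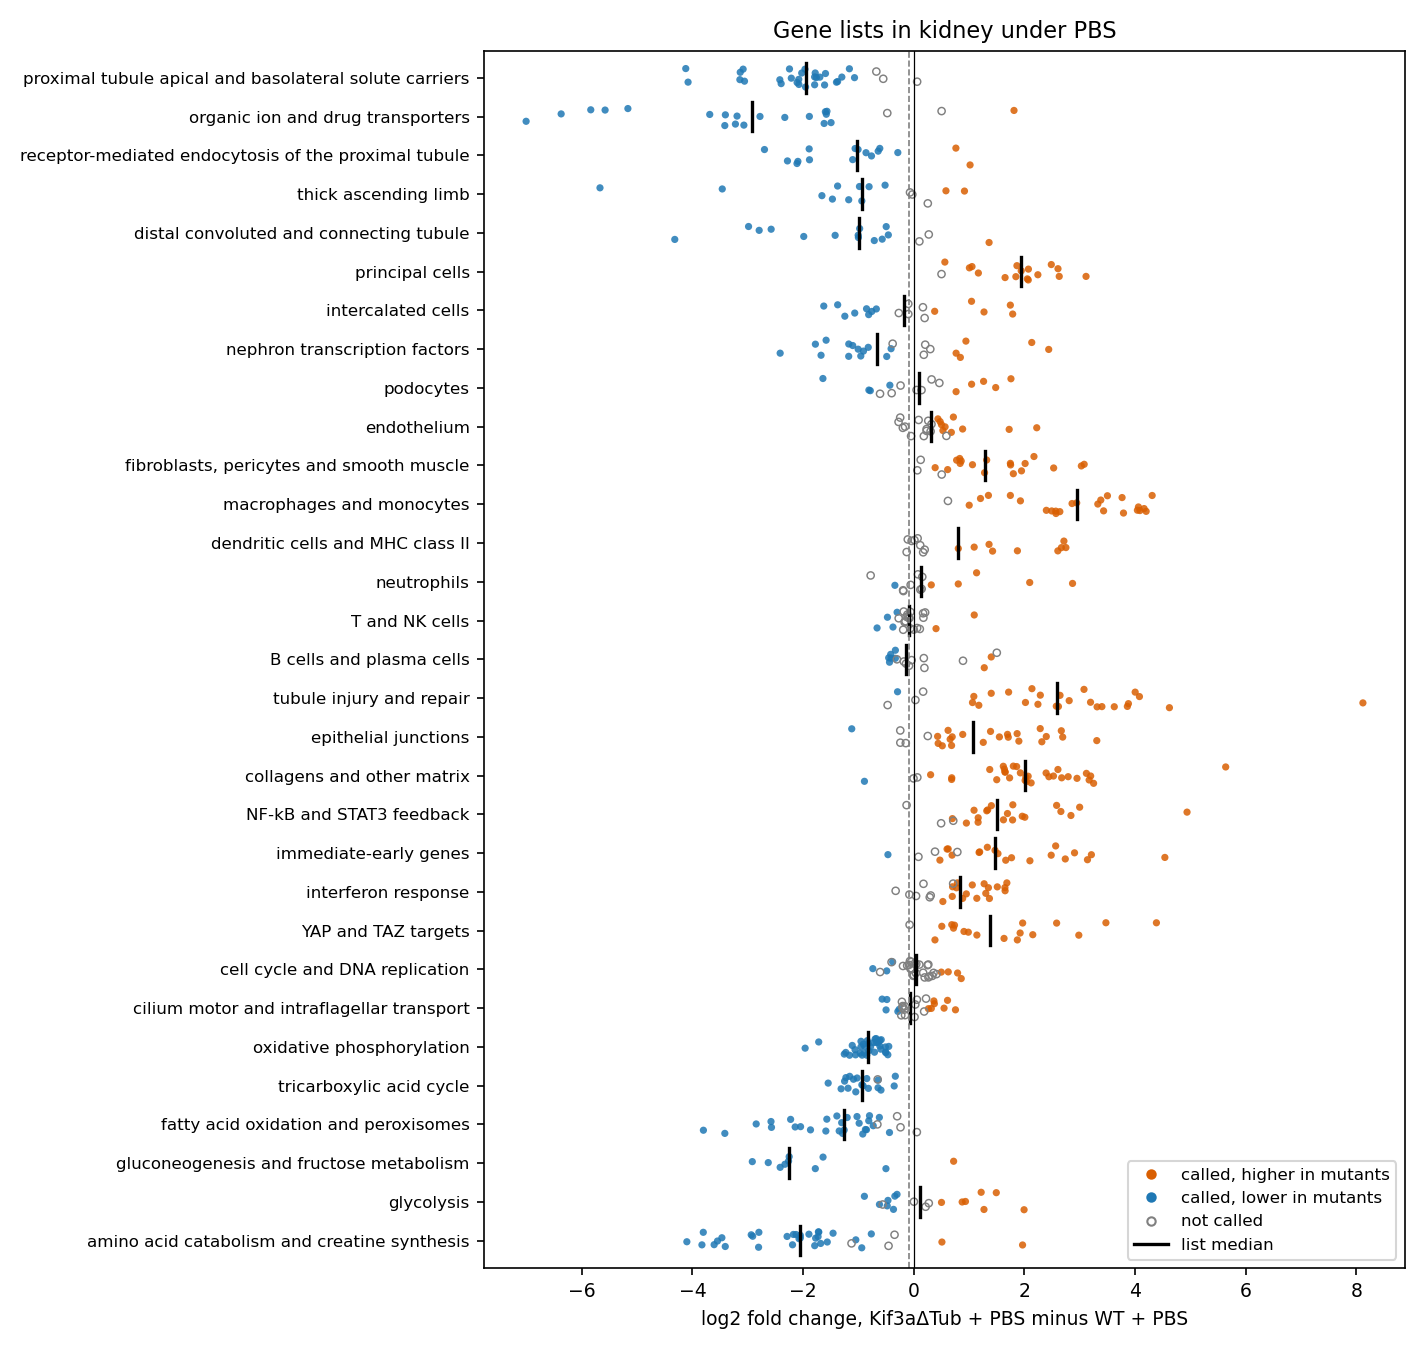
Log2 fold change of Kif3aΔTub + PBS over WT + PBS (horizontal axis) for each measured member of 31 gene lists (rows), with filled points for called genes, open points for genes not called and black bars for list medians. The dashed line is the median of all genes (-0.08); proximal tubule transport and metabolism lie to its left, and principal cell, macrophage, injury and matrix lists to its right.

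Beyond the proximal tubule the segments differed in direction. Thick ascending limb genes were lower in 10 of 15 and higher in 2 (median -0.94). Umod was at 12.66, 13.27, 13.39 and 13.22 in mutants, against 13.59, 13.75 and 13.60 in wild type (-0.52 ± 0.14) and Slc12a1, the cotransporter NKCC2, at 11.48, 12.11, 12.31 and 11.96 in mutants, against 12.90, 12.97 and 12.83 in wild type (-0.94 ± 0.15), small changes next to Egf in the same list. Tmem207 was at 3.37, 3.73, 3.59 and 3.60 in mutants, against 6.81, 7.08 and 7.20 in wild type (-3.46 ± 0.13), a drop to below background in all mutants. Cldn10, a claudin of paracellular sodium transport, fell by 1.66 ± 0.21. Sorl1, a sorting receptor that regulates NKCC2, rose by 0.92 ± 0.11.

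Distal convoluted and connecting tubule genes were lower in 13 of 16 and higher in 1 (-0.99). Slc12a3, the thiazide-sensitive cotransporter NCC, was at 7.75, 8.12, 8.21 and 8.01 in mutants, against 10.83, 11.01 and 11.18 in wild type (-2.98 ± 0.19), and its 2 probe sets gave -2.98 and -0.73. Pvalb, the calcium-binding protein parvalbumin, was at 4.72, 5.39, 4.40 and 4.25 in mutants, against 8.74, 9.16 and 9.11 in wild type (-4.32 ± 0.21), near background in mutants. Kl, the FGF23 co-receptor klotho, was at 8.81, 9.29, 9.36 and 8.92 in mutants, against 11.65, 11.66 and 11.69 in wild type (-2.58 ± 0.14). For Slc12a3, Pvalb and Kl the closest arrays of the groups were more than 2 log2 units apart. Stk39, the kinase SPAK that activates NCC, was the member that rose (1.36 ± 0.16).

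Principal cell genes of the collecting duct went the other way, with 16 of 17 higher and 0 lower (median 1.94). Aqp2, the vasopressin-regulated water channel, was at 11.16 in mutant replicate 2 and at 12.55, 12.84 and 13 in the other mutants, against 10.04, 9.61 and 9.68 in wild type (2.61 ± 0.34, adjusted p = 1.2e-05). Aqp4, a basolateral water channel, was at 11.14, 10.38, 11.59 and 11.65 in mutants, against 9.06, 8.42 and 8.63 in wild type (2.49 ± 0.27). Elf5, an epithelial transcription factor, was at 9.52, 9.65, 9.52 and 10.09 in mutants, against 6.70, 6.41 and 6.62 in wild type (3.12 ± 0.18), and Gata3, a regulator of the ureteric lineage, was at 10.20, 9.85, 9.88 and 9.94 in mutants, against 7.38, 7.21 and 7.40 in wild type (2.63 ± 0.17). All 4 genes were above every wild-type array in all mutants. Intercalated cell genes were mixed, 5 of 18 higher (27.8%, near the 24.9% of all genes) and 8 lower (44.4%, against 26.7%, median -0.18). Kit, a receptor tyrosine kinase, was at 9.09, 9.22, 8.94 and 9.01 in mutants, against 7.08, 7.45 and 7.42 in wild type (1.75 ± 0.15), and Rhcg, an ammonia channel also found in principal cells, rose by 1.79 ± 0.21. The dimmer Kit probe set gave 0.69. Slc4a1, the anion exchanger AE1 of alpha-intercalated cells and red cells, was at 6.59, 7.95, 7.47 and 7.05 in mutants, against 8.91, 8.84 and 8.92 in wild type (-1.62 ± 0.35), and the oxoglutarate receptor Oxgr1 fell by 1.37 ± 0.18. Erythroid markers were also lower, in 3 of 4 (list means 5.16 to 5.68 in mutants and 6.39 to 6.85 in wild type), and their part in the Slc4a1 value was not tested.

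Genes of the osmotic response had 7 of 13 members higher and 2 lower. Sgk1, a kinase induced by aldosterone and osmotic stress, was at 12.44, 12.09, 12.38 and 12.54 in mutants, against 10.37, 10.81 and 10.37 in wild type (1.85 ± 0.31). Slc38a2, an amino acid transporter induced by hypertonicity, rose by 1.41 ± 0.17 on its brightest probe set, with probe sets from 0.28 to 1.41. Aqp1, the water channel of the proximal tubule and descending limb, fell by 1.16 ± 0.18. Among transcription factors outside the proximal tubule, Tfap2a, an AP-2 factor, was at 8.61, 7.67, 8.29 and 8.30 in mutants, against 5.62, 5.76 and 5.95 in wild type on its brightest probe set (2.44 ± 0.19, probe sets from 0.32 to 2.44). Grhl2, a grainyhead factor of junctional epithelium, was at 9.00, 8.42, 8.74 and 8.76 in mutants, against 6.47, 6.58 and 6.74 in wild type on its brightest probe set (2.14 ± 0.15, 4 probe sets from -0.38 to 2.14).

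Epithelial junction genes had 21 of 26 members higher and 1 lower (median 1.07). Cldn4, a tightening claudin, was at 11.31, 10.76, 10.59 and 10.82 in mutants, against 7.63, 7.34 and 7.70 in wild type (3.31 ± 0.17), Cldn7 rose by 2.69 ± 0.13, and Cldn3 by 2.40 ± 0.16. Dsp, the desmosomal linker desmoplakin, was at 11.76, 11.56, 11.50 and 11.73 in mutants, against 8.89, 8.97 and 9.05 in wild type (2.67 ± 0.13). The mutants were above all wild-type arrays for these 4 genes. The exception was Cldn2, the cation-permeable claudin of the leaky proximal tubule, at 10.68, 11.40, 11.37 and 11.35 in mutants, against 12.34, 12.26 and 12.35 in wild type (-1.12 ± 0.16). Tubule injury and repair genes had 24 of 28 members higher and 1 lower (2.60). Beside Lcn2, the simple-epithelium keratins Krt18 and Krt19 led: Krt18 was at 12.44, 11.75, 11.78 and 12.22 in mutants, against 8.08, 7.68 and 8.15 in wild type (4.08 ± 0.20) and Krt19 at 10.29, 9.90, 9.78 and 9.68 in mutants, against 6.40, 5.37 and 5.95 in wild type (4.00 ± 0.22). The groups were more than 3 log2 units apart for both keratins. Havcr1, the injury marker KIM-1, did not differ past the threshold, at 9.07, 8.39, 8.12 and 8.16 in mutants, against 8.05, 8.81 and 8.36 in wild type (0.03 ± 0.36, adjusted p = 0.945). The wild-type replicate 2 array was above 3 of the 4 mutant arrays for it. Targets of YAP and TAZ, cofactors that respond to cell stretch, had 17 of 18 members higher and 0 lower (1.39). Ccn2, which encodes connective tissue growth factor, was at 12.82, 12.17, 12.77 and 13.09 in mutants, against 9.17, 9.43 and 9.11 in wild type (3.48 ± 0.34), its relative Ccn1 at 10.09, 9.51, 9.95 and 10.28 in mutants, against 7.58, 7.23 and 7.30 in wild type (2.58 ± 0.21), and F3, tissue factor, rose by 2.99 ± 0.15.

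Developmental signalling genes rose in part. In the Notch pathway 9 of 15 were higher and 1 lower (median 0.68). The ligand gene Jag1 was at 9.63, 9.56, 9.77 and 9.73 in mutants, against 7.92, 7.78 and 7.96 in wild type (1.79 ± 0.12), and the receptor Notch1 at 9.33, 9.22, 9.45 and 9.29 in mutants, against 7.81, 7.59 and 7.87 in wild type (1.57 ± 0.14). Probe sets ran from 0.60 to 1.79 for Jag1 and gave 0.83 and 1.57 for Notch1. In the Wnt pathway 14 of 31 were higher and 4 lower (0.28). The ligand Wnt4, which is induced in injured collecting duct and stroma, was at 8.16, 8.02, 8.25 and 8.27 in mutants, against 6.41, 5.80 and 5.83 in wild type (2.16 ± 0.15), and the collecting duct ligand Wnt7b rose by 1.60 ± 0.19. Dkk3, a secreted modulator, rose by 1.61 ± 0.23, and the inhibitor Sfrp2 fell by 1.03 ± 0.30. Mutants were separate from wild type for Jag1, Notch1, Wnt4, Wnt7b, Dkk3 and Sfrp2. The Hedgehog pathway, which signals through cilia, had 5 of 16 higher (31.25%, near the 24.9% of all genes) and 1 lower (median 0.18). The co-receptors Cdon (1.16 ± 0.13) and Boc (1.09 ± 0.13) rose on their brightest probe sets, and the inhibitor Sufu was at 7.65, 7.58, 7.64 and 7.52 in mutants, against 8.48, 8.28 and 8.51 in wild type (-0.83 ± 0.13). The dimmer probe sets gave 0.10 for Cdon and 0.63 for Boc.

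Regulators of BMP and activin signalling had 20 of 32 members higher and 2 lower (median 0.74). Inhba and Inhbb encode the activin subunits that the fusion protein binds as dimers. Inhbb was at 8.35, 7.78, 9.01 and 8.77 in mutants, against 5.23, 5.24 and 5.02 in wild type (3.32 ± 0.29), but its 2 probe sets gave 0.02 and 3.32. Inhba was at 7.02, 6.96, 7.01 and 6.87 in mutants, against 5.22, 5.46 and 5.59 in wild type (1.54 ± 0.12), and the activin-binding antagonist Fst at 8.52, 8.05, 8.20 and 8.30 in mutants, against 6.80, 6.56 and 7.02 in wild type (1.47 ± 0.18). The mutants were above every wild-type array for Inhbb, Inhba and Fst. Fstl1, a related secreted protein, was at 11.66, 11.18, 11.68 and 11.32 in mutants, against 8.84, 8.62 and 8.83 in wild type (2.70 ± 0.20), and the receptor Tgfbr2 rose by 2.15 ± 0.11. Grem1, a BMP antagonist, was at 6.12, 4.96, 7.49 and 6.86 in mutants, against 4.54, 4.41 and 4.46 in wild type (1.89 ± 0.42), with replicate 2 close to wild type. Bmp7, a tubule-protective ligand, fell by 0.52 ± 0.14, and Chrd, a BMP antagonist, fell by 0.63 ± 0.12.

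Stromal markers had 18 of 21 members higher and 0 lower (median 1.28). Thy1, a fibroblast surface protein, was at 8.14, 7.90, 8.01 and 7.48 in mutants, against 4.91, 4.64 and 4.84 in wild type (3.08 ± 0.27), and Acta2, the smooth muscle actin of myofibroblasts, at 12.46, 11.43, 11.83 and 12.24 in mutants, against 9.60, 9.27 and 9.51 in wild type (2.53 ± 0.32). Matrix genes had 30 of 33 members higher and 1 lower (2.02). Col1a1 was at 9.79, 8.70, 9.87 and 9.73 in mutants, against 6.75, 6.39 and 7.04 in wild type (2.79 ± 0.41), Fn1, fibronectin, at 11.44, 10.81, 11.83 and 11.83 in mutants, against 8.28, 8.09 and 8.46 in wild type (3.20 ± 0.29), and the collagen crosslinker Lox rose by 3.25 ± 0.28. Replicate 2 was the lowest mutant for Acta2, Col1a1, Fn1 and Lox, and still above all wild-type arrays. Col4a3, a chain of the mature glomerular and tubular basement membrane, fell (-0.89 ± 0.19). Matrix proteases and inhibitors had 16 of 24 members higher and 3 lower, with Mmp14 at 10.45, 9.84, 10.41 and 10.20 in mutants, against 6.89, 6.62 and 6.95 in wild type (3.41 ± 0.21). Mmp12, the macrophage elastase, rose by 3.45 ± 0.41, while Mep1a, the meprin alpha subunit, fell by 2.49 ± 0.18.

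Podocyte markers were called at shares near those of all genes, and vascular markers were higher in part. Podocyte genes had 5 of 16 members higher (31.25%, against 24.9% of all genes) and 4 lower (25.0%, against 26.7%). Their median was 0.10, and -0.06 once centred on the median gene. Nphs1, which encodes the slit-diaphragm protein nephrin, was at 5.26, 5.27, 5.22 and 5.07 in mutants, against 5.86, 6.14 and 6.05 in wild type (-0.81 ± 0.15), and Clic5, of podocyte foot processes and endothelium, was at 7.76, 8.07, 8.09 and 7.88 in mutants, against 9.59, 9.52 and 9.65 in wild type (-1.64 ± 0.11). Cd2ap, an adaptor also present in tubules, was at 11.43, 10.83, 11.05 and 11.03 in mutants, against 9.70, 9.52 and 9.58 in wild type (1.48 ± 0.16). The groups did not overlap for these 3 genes. Endothelial genes had 10 of 23 members higher and 0 lower (0.32), 6 were higher without wild-type replicate 2, and 1 with the Xist level as a covariate. Pecam1, a pan-endothelial marker, was at 7.02, 7.12, 6.84 and 6.78 in mutants, against 6.82, 6.49 and 6.81 in wild type (0.23 ± 0.18, adjusted p = 0.274), so the groups overlapped. Vwf, von Willebrand factor, was at 6.82, 6.26, 6.22 and 6.59 in mutants, against 4.56, 4.66 and 5.01 in wild type (1.73 ± 0.31), and Lyve1, a lymphatic marker also carried by some macrophages, was at 7.66, 6.84, 6.31 and 6.04 in mutants, against 4.69, 4.46 and 4.31 in wild type (2.23 ± 0.45).

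Macrophage and monocyte markers had 24 of 25 members higher and 0 lower (median 2.95). Adgre1, an adhesion receptor that marks mouse macrophages, was at 7.91, 8.59, 8.78 and 8.20 in mutants, against 6.18, 5.94 and 5.79 in wild type (2.40 ± 0.27). Cd163, a haemoglobin scavenger receptor of tissue macrophages, was at 8.25, 7.93, 8.75 and 8.15 in mutants, against 4.17, 3.69 and 4.01 in wild type (4.31 ± 0.23), and C1qb at 11.27, 11.15, 11.54 and 11.56 in mutants, against 7.48, 7.01 and 7.38 in wild type (4.09 ± 0.24). Genes of dendritic cells and MHC class II had 9 of 17 members higher and 0 lower (0.81), with Cd74, the class II invariant chain, at 11.58, 11.56, 12.04 and 11.68 in mutants, against 9.13, 8.84 and 8.92 in wild type (2.75 ± 0.20). The wild-type levels of Cd163 were below background, and the mutant arrays of all 4 genes were far above wild type. Lymphoid markers were mostly near or below background. T and NK cell genes had 2 of 23 members higher and 4 lower (lower in 2 without wild-type replicate 1), only 6 of the 23 having a mean above background, and Cd3e was at 5.80, 5.92, 5.90 and 5.53 in mutants, against 5.64, 6.24 and 5.96 in wild type (-0.16 ± 0.15, adjusted p = 0.359). B and plasma cell genes had 2 of 17 members higher and 6 lower (lower in 2 without wild-type replicate 1), again with 6 above background. Cd79b, a B cell receptor chain, was at 6.15, 6.03, 5.78 and 5.94 in mutants, against 5.04, 4.63 and 4.41 in wild type (1.28 ± 0.19).

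Neutrophil markers had 5 of 14 members higher and 1 lower (0.13, and -0.03 once centred on the median gene). S100a8, a calprotectin subunit, was at 6.69, 6.16, 8.36 and 6.08 in mutants, against 4.03, 3.66 and 4.16 in wild type (2.87 ± 0.67), and S100a9, its partner, at 6.16, 5.63, 8.02 and 5.86 in mutants, against 4.31, 4.28 and 4.36 in wild type (2.10 ± 0.62). Replicate 3 stood above the other mutants for both. It was also the highest for Cxcl5, a neutrophil-attracting chemokine, at 5.79, 5.27, 8.0 and 4.57 in mutants, against 2.65, 2.64 and 2.69 in wild type (3.25 ± 0.61), and for the cytokine Il6, at 5.55, 3.78, 7.50 and 5.08 in mutants, against 2.81, 2.70 and 2.82 in wild type (2.70 ± 0.64). All wild-type arrays were below background for S100a8, S100a9, Cxcl5 and Il6. With arrays below the background level set to it, the rises were at least 3.61-fold for S100a8 and 2.73-fold for S100a9. They were at least 2.06-fold for Cxcl5 and 1.75-fold for Il6. Chemokines as a list had 18 of 28 members higher and 1 lower (0.85). The monocyte-attracting Ccl12 was at 7.06, 7.24, 7.97 and 7.73 in mutants, against 4.15, 4.14 and 4.38 in wild type (3.28 ± 0.25), and Ccl9 and Ccl6, made by myeloid cells, rose by 3.47 ± 0.25 and 3.22 ± 0.20. Ccl28, an epithelial chemokine, fell by 1.10 ± 0.35, and without wild-type replicate 1 the difference was -0.79 (adjusted p = 0.0941).

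Cytokines and growth factors had 21 of 34 members higher and 4 lower, or 2 without wild-type replicate 3 (median 0.89). Csf1, the growth factor of macrophages, was at 9.71, 9.60, 9.82 and 9.68 in mutants, against 6.94, 7.0 and 7.04 in wild type (2.71 ± 0.15), with probe sets from 0.18 to 2.71. Clcf1, a ligand of the gp130 receptor family, was at 8.01, 6.85, 7.75 and 7.59 in mutants, against 3.76, 3.99 and 3.87 in wild type (3.68 ± 0.23), with 3 probe sets from 0.69 to 3.68. Il15 was at 6.45, 6.69, 6.83 and 6.95 in mutants, against 8.02, 8.41 and 8.14 in wild type (-1.46 ± 0.14) and Vegfa, an endothelial growth factor made by tubules and podocytes, at 8.13, 7.82, 8.26 and 7.77 in mutants, against 8.85, 8.81 and 8.82 in wild type (-0.83 ± 0.15), both lower on every mutant array. Feedback genes of NF-kB and STAT3 had 19 of 22 members higher and 0 lower (1.51). Osmr, the oncostatin M receptor chain, was at 9.94, 9.38, 10.23 and 9.94 in mutants, against 6.93, 6.88 and 6.80 in wild type (3.00 ± 0.21), Cebpd, an acute-phase transcription factor, at 9.52, 9.13, 9.46 and 9.40 in mutants, against 6.12, 6.42 and 7.07 in wild type (2.84 ± 0.24), and Nfkbiz, an atypical inhibitor of NF-kB, rose by 2.66 ± 0.25. Probe sets of Osmr ran from 0.35 to 3.00. Immediate-early genes had 19 of 23 members higher and 1 lower (1.47), with Fos at 8.97, 7.84, 8.65 and 8.20 in mutants, against 5.73, 4.81 and 5.06 in wild type (3.21 ± 0.25). The groups were separate for Osmr, Cebpd, Nfkbiz and Fos.

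Interferon-response genes had 17 of 24 members higher and 0 lower (0.84). Psmb8, an immunoproteasome subunit, was at 8.75, 8.76, 8.39 and 8.67 in mutants, against 7.33, 6.61 and 6.93 in wild type (1.69 ± 0.17), and Ifit1 at 8.38, 7.56, 6.62 and 7.14 in mutants, against 5.71, 5.73 and 5.87 in wild type (1.65 ± 0.32). Replicate 3, which had the highest neutrophil-attracting chemokine, had the lowest Ifit1 of the mutants. Complement and coagulation genes had 16 of 22 members higher and 2 lower (1.58). F13a1, a factor XIII subunit made by macrophages, rose by 2.96 ± 0.25, and Fgg, the fibrinogen gamma chain, was at 9.85, 9.81, 9.52 and 9.70 in mutants, against 6.77, 6.64 and 7.47 in wild type (2.76 ± 0.30). Serping1, the C1 inhibitor, rose by 2.40 ± 0.19. Cfb, complement factor B, was at 8.92, 9.44, 9.28 and 9.31 in mutants, against 10.18, 10.13 and 10.18 in wild type and fell by 0.93 ± 0.14, against the direction of the list.

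Hormone and iron genes were higher at about the share of all genes and lower more often. Renal hormones and their receptors had 6 of 26 members higher (23.1%, against 24.9% of all genes) and 11 lower (42.3%, against 26.7%, median -0.28). Ace, angiotensin-converting enzyme of the brush border and endothelium, was at 5.80, 6.43, 5.80 and 5.97 in mutants, against 8.21, 7.76 and 8.02 in wild type (-2.0 ± 0.20), and Corin, which processes atrial natriuretic peptide, was at 2.90, 3.04, 3.05 and 2.89 in mutants, against 4.78, 5.31 and 5.30 in wild type (-2.16 ± 0.13), close to background in wild type too. Edn1, endothelin-1, was at 8.27, 7.37, 7.84 and 7.35 in mutants, against 5.75, 5.79 and 5.82 in wild type (1.92 ± 0.20), and the prostaglandin receptor Ptger4 rose by 2.11 ± 0.16. The groups did not overlap for Ace, Corin, Edn1 and Ptger4. Cyp27b1, which activates vitamin D, was at 7.74, 8.0, 8.61 and 8.85 in mutants, against 6.31, 8.24 and 6.19 in wild type (1.39 ± 0.61, adjusted p = 0.0678), with wild-type replicate 2 inside the mutant range. Without that array the difference was 2.05 (adjusted p = 0.0135). With every PBS array kept, Cyp27b1 was also called when the PBS arrays alone were fitted (1.39, adjusted p = 0.0377). The same held with array weights (1.60, adjusted p = 0.0116) and without wild-type replicate 2 given the fusion protein (1.39, adjusted p = 0.0302). NRF2, metal and iron genes had 6 of 25 members higher (24.0%, against 24.9%) and 12 lower (48.0%, against 26.7%, median -0.25). Cp, the ferroxidase ceruloplasmin, was at 12.16, 11.84, 12.11 and 12.05 in mutants, against 8.16, 8.02 and 8.34 in wild type (3.87 ± 0.16), and Mt2, a metallothionein, rose by 2.38 ± 0.32. Tfrc, the transferrin receptor, was at 8.71, 9.28, 9.02 and 8.66 in mutants, against 10.86, 10.55 and 10.70 in wild type (-1.78 ± 0.23), and Sod3, an extracellular superoxide dismutase, fell by 1.80 ± 0.17.

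The mutants were not equally far from wild type. Projected on the mean genotype difference of the other arrays over the called genes, mutant replicates 1 to 4 lay at 113%, 81.8%, 100% and 102%, and the wild-type arrays between -2.92% and 3.07%. The called genes came from the fit that held the projected array, so the gap between the groups is partly set by that choice. The median SD of a gene was 0.141 among mutants and 0.0968 among wild type. In the proximal tubule solute carriers the list mean was 7.94, 9.00, 8.70 and 8.63 in mutants, against 10.54, 10.52 and 10.59 in wild type. Amino acid catabolism gave 7.91, 9.18, 8.58 and 8.61 in mutants and 10.55, 10.55 and 10.58 in wild type, so replicate 1 was lowest and replicate 2 highest in both lists. The order differed for inflammation: replicate 3 had the highest chemokine list mean, 6.91 against 6.41 to 6.45 in the other mutants, and the lowest interferon-response mean, 7.45 against 7.68 to 7.96. Adipocyte markers also varied, with list means of 7.49, 8.83, 6.13 and 5.90 in mutants and 8.67, 6.98 and 7.95 in wild type, and their part in the spread was not tested. The 4 mutants were above every wild-type array in the means of the chemokine, interferon, matrix, injury and macrophage lists.

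**Figure D3:**
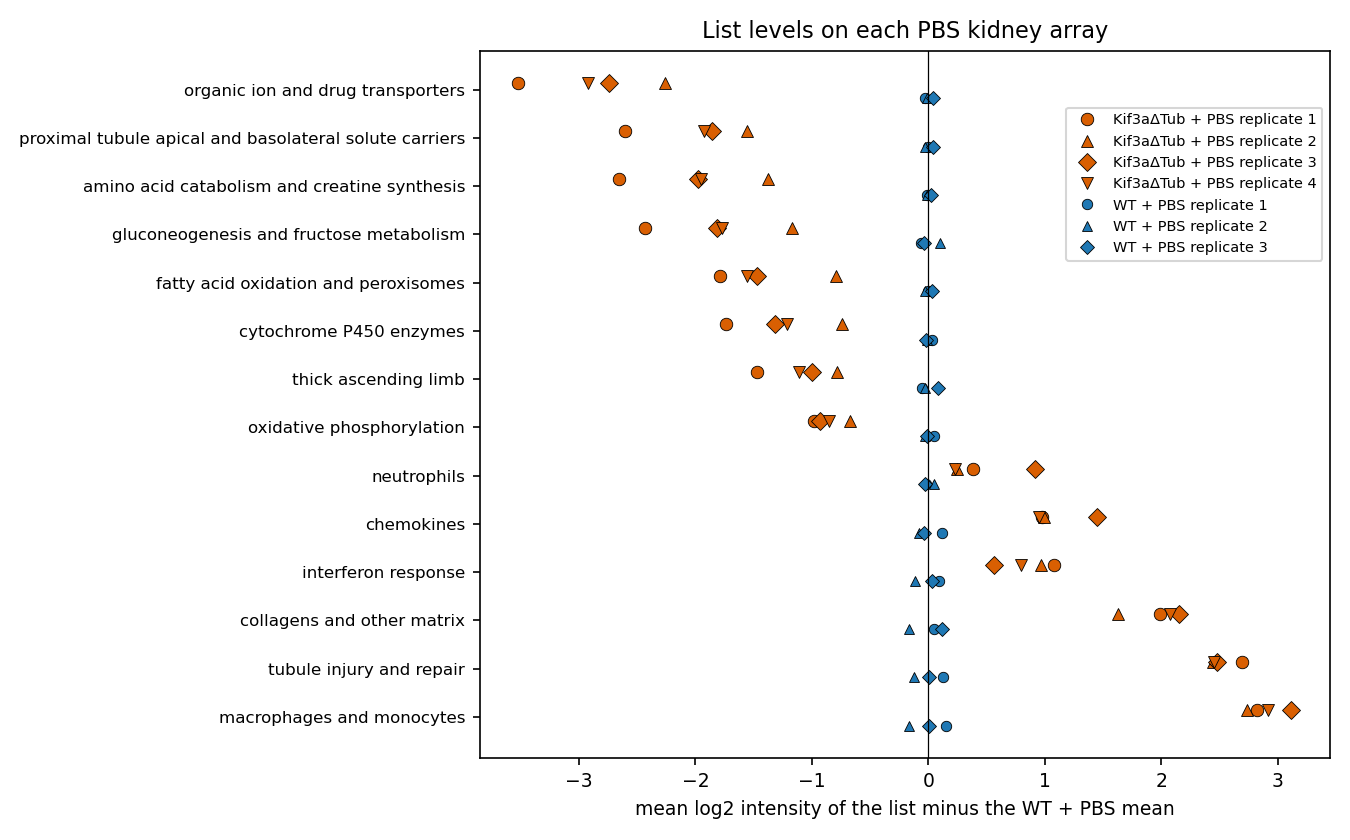
Mean log2 intensity of 14 gene lists (rows) on each PBS kidney array, relative to the WT + PBS mean (horizontal axis), with a marker shape for each replicate number of the 4 Kif3aΔTub + PBS and the 3 WT + PBS arrays. In transport and metabolic lists replicate 1 of the mutants lies farthest from wild type and replicate 2 closest, while replicate 3 is highest for neutrophil and chemokine lists.

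Cell cycle genes hardly separated the genotypes under PBS, with 4 of 31 higher and 3 lower (median 0.04, and -0.05 once arrays were centred on their median). Wild-type replicate 1 was apart: the list mean was 6.85, 6.87, 6.81 and 6.92 in mutants, against 7.15, 6.62 and 6.60 in wild type. Without that array 9 were higher and 1 lower (0.21). The replication gene Mcm4 rose (0.79 ± 0.17). Rrm1, another, was higher on its brightest probe set (0.63 ± 0.12), while its probe sets ran from 0.05 to 0.63. Cdc6 was called higher with all its PBS arrays below background, while the mitotic gene Cdc20 was at 7.65, 7.55, 7.35 and 7.70 in mutants, against 8.52, 7.86 and 7.76 in wild type (-0.49 ± 0.18). Without wild-type replicate 1 its difference was -0.25 and was no longer called (adjusted p = 0.221). Its call was also lost without mutant replicate 2 (-0.48) or mutant replicate 3 (-0.42). Among p53 targets and cell-cycle inhibitors 11 of 23 were higher and 0 lower (0.58). The cyclin-dependent kinase inhibitors Cdkn1a and Cdkn2b were at 9.88, 9.28, 9.79 and 9.49 in mutants, against 7.04, 6.93 and 7.16 in wild type (2.57 ± 0.34) and at 8.72, 8.37, 8.45 and 8.72 in mutants, against 6.44, 5.52 and 5.79 in wild type (2.64 ± 0.24), with all mutants above wild type.

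The genotype difference under PBS was tested against that between the 4 mutants and the 4 wild types given the fusion protein, as an interaction in the same fit. It differed for 246 genes (1.38%). Among the 246 the difference was larger in size under PBS for 174 and smaller for 72, and for 68 it had the opposite sign under the fusion protein. Leaving out 1 PBS array at a time moved the 246 to between 96 and 458, so single arrays weigh heavily in this count, and on 1 mutant array given the fusion protein adrenal cortex markers had a list mean of 9.82, against 4.65 to 5.02 on all other kidney arrays. Without it 176 genes were called.

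Slc22a19 differed by -6.37 ± 0.32 under PBS and by -2.57 ± 0.30 under the fusion protein (interaction adjusted p = 0.000973), and Ugt3a1 by -4.41 ± 0.23 and -1.99 ± 0.21 (interaction adjusted p = 0.00188). Both genotype differences of each gene had the same sign. Principal cell genes had 7 of 17 called in this test, with a median difference of 1.94 under PBS and 1.03 under the fusion protein. With the Xist level as a covariate 0 were called by limma, without wild-type replicate 1 it was 3, and 4 without mutant replicate 1 or 4, wild-type replicate 2 or 3, or mutant replicate 2 given the fusion protein. Gata3 differed by 2.63 ± 0.17 and 1.55 ± 0.16 (interaction adjusted p = 0.0357), and Kit, of intercalated cells, by 1.75 ± 0.15 and 0.54 ± 0.14 (interaction adjusted p = 0.00939). Sgk1 differed by 1.85 ± 0.31 under PBS and -0.19 ± 0.29 under the fusion protein (interaction adjusted p = 0.0264). Its levels under the fusion protein were 11.89 ± 0.37 in mutants and 12.08 ± 0.76 in wild type (mean ± SD, n = 4 each).

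Of the cell cycle genes 13 of 31 were called in the interaction, with a median difference of 0.04 under PBS and 1.27 under the fusion protein. The list mean was 6.98, 7.38, 7.30 and 7.44 in mutants given the fusion protein, against 5.95, 6.42, 6.04 and 5.99 in wild type given it. Cdc20 differed by -0.49 ± 0.18 and 0.99 ± 0.16 (interaction adjusted p = 0.00934), and Kif20a, a mitotic kinesin, by -0.74 ± 0.28 and 1.48 ± 0.26 (interaction adjusted p = 0.0116). Wild-type replicate 1 was the highest PBS array for both genes, and without it the difference of Kif20a under PBS was -0.30 (adjusted p = 0.268). Its call was also lost without mutant replicate 1, 2 or 3 (-0.75 to -0.68). Without wild-type replicate 1, 9 of the 31 were called in the interaction, without mutant replicate 2 given the fusion protein 10, and with the Xist level as a covariate 1.

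**Figure D4:**
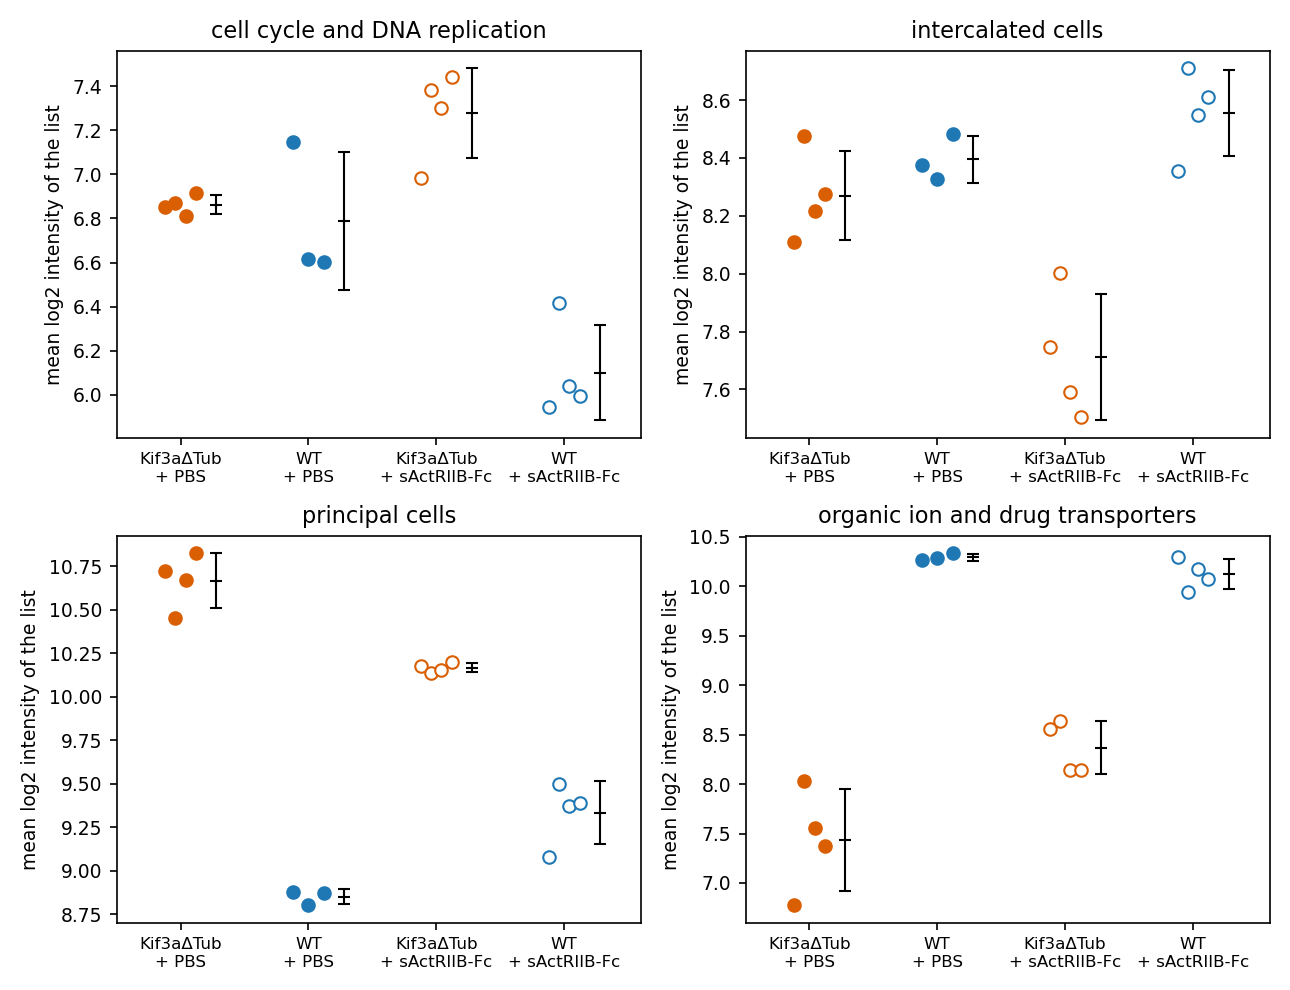
Mean log2 intensity (vertical axis) of 4 gene lists on each kidney array of the 4 groups, with filled circles for PBS, open circles for sActRIIB-Fc and black bars for group means ± SD. Under PBS the genotypes are far apart for principal cells and organic ion transporters and overlap for the cell cycle list, while under sActRIIB-Fc the cell cycle list is higher and the intercalated list lower in every mutant.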

How the data were processed

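Snap-frozen kidney and muscle gave RNA for Affymetrix Mouse Genome 430 2.0 arrays, as the labels' protocols state. The authors deposited log2 expression values in the series matrix, and the sources used here do not give their background correction or normalization. Of 35088 probe sets, the platform annotation named 1 gene for 31563, several for 825 and none for 2700. The last 2 kinds were left out, and a gene with several probe sets was represented by the brightest on average in kidney. This left 17782 genes, with no filter on dim genes. All 15 kidney arrays entered 1 fit of 4 groups in limma 3.58.1 (R 4.3.3, lmFit and eBayes, Benjamini-Hochberg adjustment), and the mutant minus wild-type contrast under PBS was tested at an adjusted p of 0.05. Array medians over all probe sets lay between 6.09 and 6.24. The precision is limited by the number of arrays, 4 and 3.

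Genes were named by a rule: the 12 largest rises and falls among called genes whose arrays did not overlap, up to 4 called members with the largest change and up to 2 called members against the majority in each of 53 gene lists, and 25 genes named in any case, of which 21 were measured. The members and the lists were chosen with earlier results of these data known. Tested on simulated data with 200 of 17782 genes changed, the fit recovered 90% of changes of 1 and 97% of changes of 2 on the log2 scale. It made 11 false calls among the unchanged genes. The simulated noise was independent between genes and few genes changed, while 51.6% were called in the data. The run thus checks the fit and gives no error rate for these data. Alternatives changed the probe set rule, the scaling, the filter on dim genes, the variance model, the covariates, the groups in the fit and the arrays. 1 promoter window is not reported here. Figures were drawn with matplotlib 3.10.9, and lists were summarised with pandas 2.3.3.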

Additional observations from a re-analysis of the deposited data

Results flagged for a closer look

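Among the 185 genes and 52 lists tested for a single array far from the others of its group, 11 values among the mutants were flagged. Chance flags about 1 in 20 groups of this size, so this number is near what chance alone would give. Replicate 2 stood above the other mutants for Acot12 (8.77), Ccl28 (6.52) and Cyp2e1 (11.56) and below them for Col1a1 (8.70). Replicate 1 was apart for Mep1b (5.25) and Cldn2 (10.68), below the other mutants, and for the mean of the tubule injury list (10.66), above them. Replicate 3 was high for Ptger4 (9.08) and for the chemokine mean (6.91). Replicate 4 was low for Boc (6.48) and Pck2 (8.34). Each of these groups remained separate from wild type.

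A second set of 21 results was flagged because the genotype difference under PBS differed from that under the fusion protein in the interaction test, at an adjusted p under 0.05. The PBS difference minus the fusion-protein difference was positive for genes higher in mutants. It was 2.04 for Sgk1, 1.60 for Cebpd, 1.46 for Cd163, 1.32 for Krt18, 1.21 for Kit, 1.12 for Dsp, 1.09 for Gstm2, 1.08 for Gata3, 1.05 for Grhl2, 1.01 for Cldn3 and 0.81 for Cyp4v3. For genes lower in mutants the value was negative: -3.80 for Slc22a19, -3.54 for Slc22a30, -2.42 for Ugt3a1, -1.78 for Pvalb, -1.51 for Tfrc, -1.15 for Mep1a, -1.01 for Glyctk and -0.84 for Kl. The mitotic genes had -2.21 for Kif20a and -1.48 for Cdc20. In all 19 genes other than these 2 the difference under PBS was the larger in size.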

How the results depend on the processing

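The numbers of genes called under PBS (9174, of which 4420 were higher and 4754 lower) stayed within 1.5 times under most alternatives. With genes above the median level alone, which tested fewer genes, 5807 were called, 3208 higher and 2599 lower. Higher calls thus outnumbered lower calls among the brighter genes, unlike among all genes. Requiring a 2-fold difference left 2716, with 1574 higher and 1142 lower. With the Xist level as a covariate, which was lower on every mutant than on every wild-type PBS array, 5235 were called, 2810 higher and 2425 lower. Centring on the median gene moved the median of all genes by -0.16 and gave 7989 lower. Leaving out 1 PBS array at a time gave 7760 to 9178 called, 3887 to 4480 higher and 3873 to 4698 lower.

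The interaction count of 246 genes moved to 643 with array weights, 17 with the Xist covariate and 96 to 458 without single PBS arrays (lowest without wild-type replicate 1, highest without mutant replicate 2). The replicate block gave 102 interaction calls and, under PBS, 4302 higher and 4374 lower. It left 7 of 31 cell cycle and 4 of 17 principal cell genes with an interaction call. Deviations of PBS samples with the same replicate number from their group means correlated at 0.118, -0.027 and -0.018. With so few arrays these values cannot tell whether the replicate numbers, which follow the listed order, pair samples. Of the 185 named genes the Xist covariate took 10 below the threshold, Kif3a among them (-0.57, adjusted p = 0.0753), and centring on array medians took 0. Quantile normalization took Umod below it (-0.30, adjusted p = 0.0885), and the block Kif20a (adjusted p = 0.0574). The mean of all probe sets turned Invs to 0.00187. The cause of these moves was not tested.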

Other observations

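Markers of tissues around the kidney were compared by their list means. Urothelium means overlapped between genotypes, while adrenal cortex, hepatocyte and skeletal muscle means, on the deposited scale, were lower on every mutant than on every wild-type PBS array. Urothelium markers had list means of 5.96, 6.08, 5.23 and 5.01 in mutants, against 5.56, 5.25 and 5.45 in wild type, with 1 of 12 members higher and 1 lower. Adrenal cortex markers had list means between 4.65 and 4.82 in mutants and between 4.83 and 4.92 in wild type under PBS. These means were all below the background level of 4.97, and 0 of 7 members were called. Hepatocyte genes, several of which the proximal tubule also makes, were lower in 5 of 8 and higher in 1, with list means of 5.66 to 6.28 in mutants and 6.67 to 6.74 in wild type. The skeletal muscle list includes Pvalb, given above among distal tubule genes (-4.32), and its part in the list mean was not tested. Skeletal muscle markers, whose list means were near or below the background level at 4.28 to 4.49 in mutants and 4.85 to 4.97 in wild type, were lower in 2 of 12 and higher in 0. With arrays centred on their median 6 were lower, with arrays centred on the median gene 7, and without single PBS arrays 1 to 3.

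Among called genes, those that varied most among the mutants, chosen after their values were seen, included tubule and neutrophil-attracting genes. Genes that were not called were left out of this ranking. Rdh16f2, of the retinol dehydrogenase family, was at 6.24, 10.84, 8.04 and 7.87 in mutants, an SD of 1.91 against 0.270 in wild type. Cckar, a cholecystokinin receptor, was at 5.19, 9.01, 6.16 and 6.42 in mutants, and Slc13a3, a dicarboxylate carrier, at 8.17, 11.76, 9.40 and 8.98. All 3 were highest in replicate 2 and lowest in replicate 1. Cxcl2, a neutrophil-attracting chemokine, was at 4.50, 4.23, 7.29 and 4.53 in mutants, highest in replicate 3.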
